A study of Mus musculus with 18 samples.

Results

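The mRNAs of the cytosolic ribosomal proteins were followed in mouse oligodendrocyte progenitor cells (OPCs), the dividing glial cells that give rise to myelinating oligodendrocytes. The members were taken by gene name: Rps or Rpl with a number and at most 1 of the endings a, x, y or l, together with Rpsa, Rplp0, Rplp1 and Rplp2, with pseudogene names left out. Of 54279 gene rows in each of 2 deposited tables, 83 had such a name, and 77 of them averaged at least 1 CPM (estimated counts scaled to libraries of 1 common size) in each table. These 77 comprised 31 genes of the small subunit, 43 of the large subunit and the 3 genes of the P stalk, among 13460 genes tested in the drug experiment and 13569 in untreated cells. The 6 genes under that level were Rpl10l, Rpl32l, Rpl3l, Rpl6l, Rpl39l and Rps4l. Among them Rpl3l, the paralog of Rpl3 best known from striated muscle, averaged 0.0332 CPM in the drug experiment, and Rpl39l averaged 0.0746 CPM there and 0.79 CPM in untreated cells. Rpl10l had a mean of 0 CPM in the drug experiment.

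RNA was sequenced from OPCs derived from epiblast stem cells and kept in medium with Fgf2 and Pdgfa. There were 18 libraries in 6 groups of 3, lettered A, B and C. The drug experiment held CRISPR-Vhl OPCs in 300 nM AZD8330, CRISPR-Vhl OPCs in DMSO, CRISPR-Control OPCs in 300 nM AZD8330 and CRISPR-Control OPCs in DMSO, each for 14 hours. The other experiment held untreated CRISPR-Vhl OPCs and untreated CRISPR-Control OPCs. All 6 groups had passed through CRISPR editing, and the sources used here give neither the guide sequences nor how many clones or cultures lie behind a group. AZD8330 inhibits the MEK kinases that activate ERK, DMSO is its solvent, and Vhl encodes the subunit of a ubiquitin ligase that marks hypoxia-inducible factors for breakdown. No label says whether replicate libraries were grown as separate cultures, and the p-values measure the spread between these libraries only. In bulk RNA, fewer cells of a type and less RNA per cell cannot be told apart, and CPM gives a share of a library, not molecules per cell.

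Ribosomal proteins assemble with ribosomal RNA in the nucleolus into the small subunit, which reads the mRNA, and the large subunit, which forms peptide bonds. Their mRNAs belong to a class that begins with a C and a run of pyrimidines, the terminal oligopyrimidine (TOP) motif, through which the mTOR kinase and the RNA-binding protein Larp1 set their translation and stability. Growth factor signalling through ERK and the transcription factor Myc is also known to raise ribosome production in dividing cells.

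The sequences around the annotated start were read from RefSeq for the mouse build GRCm38.p6, because the start of the transcript carries the TOP motif and because these genes moved together under the drug. RefSeq promoters matched 57 of the 77 genes, with 68 start sites, and 13 of these genes had a start site whose first transcribed base was C followed by 4 further pyrimidines. In the following lines each sequence is on the gene's own strand and runs from 40 bases before the start to the 10th transcribed base. The first 6 had the highest levels among the genes of at least 100 CPM with 1 annotated start site and such a start, and their capitals mark the pyrimidine run that opens the transcript, as far as the 10th base. The last 2 lack that start and were chosen for the largest and the smallest fall in control cells among the other genes of at least 100 CPM with 1 annotated start site; there the capital marks the first transcribed base alone.
Rps6, chr4:86857358-86857407, minus strand: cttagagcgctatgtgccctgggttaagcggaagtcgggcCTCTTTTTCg
Rpl14, chr9:120571477-120571526, plus strand: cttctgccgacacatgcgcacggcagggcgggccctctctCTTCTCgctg
Rps18, chr17:33955656-33955705, minus strand: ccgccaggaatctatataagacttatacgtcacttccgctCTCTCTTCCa
Rps15a, chr7:118116138-118116187, minus strand: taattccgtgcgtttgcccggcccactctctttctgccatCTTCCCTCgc
Rpl35, chr2:39005122-39005171, minus strand: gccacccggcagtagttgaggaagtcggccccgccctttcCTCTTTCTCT
Rpl38, chr11:114668540-114668589, plus strand: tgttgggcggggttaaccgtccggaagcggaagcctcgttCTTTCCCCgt
Rpl27a, chr7:109519155-109519204, plus strand: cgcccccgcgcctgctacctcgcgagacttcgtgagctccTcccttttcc
Rps3, chr7:99483700-99483749, minus strand: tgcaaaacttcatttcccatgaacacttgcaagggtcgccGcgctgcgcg

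Such a start was present at 19.1% of the 68 start sites of ribosomal protein genes, compared with 2.51% of 32851 start sites of all genes in the table. A C followed by 5 pyrimidines, beginning anywhere between 10 bases before and 15 bases after the annotated start, was found at 48.5% of the ribosomal protein start sites and at 19.2% of all start sites. Rpl27a, printed with no C start, opened with a T in a pyrimidine run that continued for 16 bases, so 1 base of annotation separates it from the motif. In windows from 250 bases before to 50 after the start, the letters CCGGAAG, a core recognised by ETS factors such as Gabpa, were present on either strand at 36.8% of the ribosomal protein start sites and at 8.86% of all start sites. CACGTG, the E-box core bound by Myc and Max, was present at 11.8% of the ribosomal protein start sites and 7.15% of all, and ACGTG, which every CACGTG contains, at 33.8% and 19.6%. TATAA on the gene's strand between 40 and 20 bases before the start was found at 5.88% of the ribosomal protein start sites and 3.38% of all. A match describes letters only, and a window without one says nothing about a factor.

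The sequencing depth lay between 12391077 and 16349676 estimated counts per library in the drug experiment and between 14594148 and 21160250 in untreated cells. The edited gene was lower in the libraries labelled Vhl. In AZD8330 it had 103.4, 104.4 and 91.79 CPM in Vhl cells, against 139.4, 136.3 and 137.9 CPM in control cells (log2 change −0.46, SE 0.05, edgeR adjusted p = 1.01e-05). In DMSO it had 89.81, 92.94 and 93.85 CPM in Vhl cells, against 108.5, 106.9 and 102 CPM in control cells (log2 change −0.20, SE 0.05, edgeR adjusted p = 0.00778). Untreated Vhl cells had 87.08, 89.95 and 73.94 CPM of it, against 116.6, 120.8 and 125.1 CPM in untreated control cells. Dusp6, an ERK-induced phosphatase that serves as a readout of MEK activity, fell by 3.55 on the log2 scale with AZD8330 in Vhl cells and by 4.31 in control cells. The 8 OPC markers, among them Olig2, Sox10 and Pdgfra, were all above the level filter in both experiments. Their summed levels lay between 8031 and 9099 CPM over the 12 libraries of the drug experiment. The pluripotency factor Pou5f1 and the endothelial gene Cldn5 stood at 0 in that experiment. The other 3 pluripotency markers, Nanog, Esrrb and Fgf5, passed the filter there, with Esrrb at 14.17 to 22.07 CPM in DMSO. Endothelial Tek reached 2.273 CPM in control DMSO B. Untreated Vhl library A stood apart from the other untreated libraries in the level of ribosomal protein mRNA, and results on untreated cells are given with and without it.

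Ribosomal protein mRNA made up between 2.80% and 4.32% of all counts in a library of the drug experiment. On the scale of CPM, the 77 genes ranged from 3.716 CPM for Rps15 to 1623 CPM for Rpsa, the small subunit protein once described as the laminin receptor, with a median of 438.9 CPM, and 53 genes reached 100 CPM. Per kilobase of the principal transcript the highest levels were 2621 CPM per kb for Rplp1, an acidic P stalk protein, 2287 CPM per kb for Rpl41, the shortest of the ribosomal proteins, and 1738 CPM per kb for Rpl23a at the peptide exit tunnel. The longest principal transcript of each gene set its length, such as 5179 bases for Rps15a, and a longer choice lowers the value per kb. The per-length median was 473.9 CPM per kb, and 25 genes lay under 100 CPM per kb, although the proteins stand together in one particle.

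Much of that range coincided with rows of near-identical genes, chiefly processed pseudogenes, which share most of their sequence with a ribosomal protein mRNA and can take its reads when estimated counts are divided between them. A row was counted as near-identical when at least 50% of its 31-base words occurred in the ribosomal protein gene. Summing each gene with such rows left 53 of the 77 genes with at least 95% of the level in their own row, 13 with under 50%, and 9 with under 10%. Rpl3, whose protein reaches towards the peptidyl transferase centre, had 31.89 CPM in its own row and 1290 CPM when summed, since Rpl3-ps1 alone averaged 1258 CPM. Rplp0, the scaffold of the P stalk, had 6.205 CPM in its own row, 1.5% of a sum of 413.8 CPM, and the row Gm8730 averaged 404.5 CPM. Of the 22 ribosomal protein genes under 50 CPM, 11 reached at least 100 CPM when summed and 11 did not, and Rps15 stayed the lowest at 3.716 CPM. The division of reads between a gene and its copies is uncertain here.

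**Figure D1:**
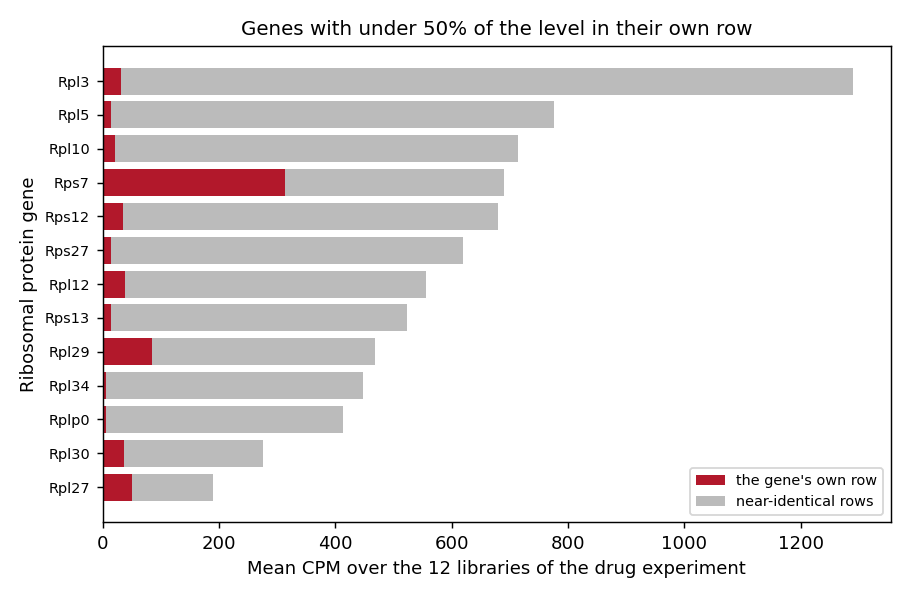
Mean CPM over the 12 libraries of the drug experiment for the 13 ribosomal protein genes with under 50% of the level in their own row; the red bar is the gene's own row and the grey bar its near-identical rows. Rpl3, with 31.89 CPM of 1290 CPM in its own row, has the longest bar, and Rps7 the largest red share, 45.5%.

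In control cells, AZD8330 was accompanied by lower ribosomal protein mRNA throughout both subunits. Of the 77 genes 75 fell and 0 rose, where 60.8% of all genes tested were called either way, 31.7% falling and 29.1% rising. The fall counted 30 of 31 small subunit genes, 42 of 43 large subunit genes and the 3 P stalk genes. The median log2 change was −0.66, against −0.01 over all genes tested, and every one of the 77 values was negative, between −1.31 and −0.20. In 73 genes the 3 drug libraries were all below the 3 DMSO libraries and in 0 all above, arrangements found in 34.1% and 32.2% of all genes. The summed level was 27710, 28860 and 28430 CPM in control cells in AZD8330, against 44230, 42520 and 44030 CPM in control cells in DMSO. The drug libraries were all lower, with means of 28330 ± 581 CPM and 43590 ± 935 CPM (SD, n = 3 each) and a sum 35% lower. Near-identical rows followed the same direction, with 23 of 34 tested rows falling and a median of −0.55.

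The smallest p-values in that comparison belonged to genes with small spread. Rps19, a small subunit protein whose human gene is mutated in Diamond-Blackfan anaemia, had 426.1, 430.3 and 432 CPM in AZD8330, against 750.3, 710.5 and 722.2 CPM in DMSO. The groups were far apart (log2 change −0.76, SE 0.03, edgeR adjusted p = 3.49e-10), a level 41% lower. Rpsa had 1283, 1354 and 1339 CPM in AZD8330, against 2222, 2168 and 2206 CPM in DMSO, again without overlap (log2 change −0.73, SE 0.03, edgeR adjusted p = 3.83e-10). Rps6, the small subunit protein that S6 kinases phosphorylate downstream of mTOR, had 714.7, 737.8 and 715.8 CPM in AZD8330, against 1129, 1114 and 1127 CPM in DMSO. That was a level 35.7% lower (log2 change −0.64, SE 0.03, edgeR adjusted p = 6.8e-10). Rpl13a, a large subunit protein known for leaving the ribosome to silence inflammatory mRNAs in myeloid cells, had 818.7, 813.9 and 792.9 CPM in AZD8330, against 1344, 1275 and 1336 CPM in DMSO. Its log2 change was −0.71 (SE 0.03, edgeR adjusted p = 7.39e-10), and its groups did not overlap.

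The members did not fall by one amount. The largest changes in control cells were log2 −1.31 for Rps13, −1.26 for Rpl3 and −1.22 for Rpl12, all from rows that held under 10% of the summed level. With the near-identical rows added, these changes were −0.75 for Rps13, −0.43 for Rpl3 and −0.91 for Rpl12, all called by edgeR. Among the 53 genes of at least 100 CPM all 53 fell, with a median of −0.64, where 49.2% of all tested genes of that level fell, with a median of −0.10; these genes include 2 extremes named after their values were seen, Rps27a at −0.99, which encodes a small subunit protein fused to ubiquitin, and Rps3 at −0.20, a small subunit protein at the mRNA entry site. Rpl22, a large subunit protein with a role in T cell development and in binding viral and cellular RNAs, fell by only 0.25 on the log2 scale (SE 0.04, edgeR adjusted p = 5.34e-05). Rpl5 and Rpl11, which with their ribosomal RNA partner bind Mdm2 when ribosome assembly is disturbed, had log2 changes of −0.73 and −0.51, both called. Rpl38, known in mice for its part in translating Hox mRNAs, fell by 0.39, Rpl39 by 0.49 and Rpl41 by 0.50. In the P stalk, which recruits elongation factors, Rplp0 fell by 0.99, Rplp1 by 0.52 and Rplp2 by 0.70. The 2 genes that did not pass the test were Rpl10 (log2 change −0.27, edgeR adjusted p = 0.297) and Rps27 (log2 change −0.22, edgeR adjusted p = 0.799), with 3.06% and 2.37% of their summed level in their own rows. Rps27l, the p53-inducible paralog of Rps27, fell by 1.11 (SE 0.27, edgeR adjusted p = 0.0033) at levels of 3.042, 3.849 and 2.725 CPM in AZD8330, against 6.791, 7.288 and 6.781 CPM in DMSO.

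In Vhl cells, AZD8330 was likewise accompanied by lower levels, in 65 of the 77 genes, with 0 rising. Over all genes tested, 25.6% fell and 25.8% rose. The 65 comprised 26 of 31 small subunit genes, 36 of 43 large subunit genes and the 3 P stalk genes. The median log2 change was −0.43, against 0.03 over all genes, and all 77 values were negative, between −1.36 and −0.16. The summed level was 29610, 29980 and 28980 CPM in Vhl cells in AZD8330, against 40390, 41190 and 39280 CPM in Vhl cells in DMSO. Means were 29520 ± 506 CPM and 40290 ± 959 CPM (SD, n = 3 each), a sum 26.7% lower, again with no overlap. In 67 genes the drug libraries all lay below the DMSO libraries, against 28.4% of all genes.

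Rpsa had the smallest p in this comparison, with 1153, 1183 and 1117 CPM in Vhl cells in AZD8330, against 1857, 1833 and 1766 CPM in Vhl cells in DMSO (log2 change −0.66, SE 0.03, edgeR adjusted p = 1.66e-09). Rps6 had 762.4, 737.3 and 713.3 CPM in AZD8330, against 1060, 1066 and 1040 CPM in DMSO (log2 change −0.52, SE 0.03, edgeR adjusted p = 8.11e-09). The groups of both genes were separate. The large subunit genes Rpl4 and Rpl8, whose proteins lie near the exit tunnel and the peptidyl transferase centre, fell by 0.52 and 0.50. The largest changes came from low rows, log2 −1.36 for Rplp0, −1.07 for Rps27l and −1.04 for Rpl3. Summing near-identical rows gave −0.45 for Rplp0 and −0.39 for Rpl3, both called. Of the 12 genes not called, 10 had under 100 CPM, and 51 of the 53 genes of at least 100 CPM fell, 96.2%, where 43.6% of all tested genes of that level fell.

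Cell type markers moved with the drug in both genotypes. Of the 8 OPC markers 3 rose and 2 fell in Vhl cells, where 25.8% of all genes rose and 25.6% fell. In control cells 4 of them rose and 3 fell, where 29.1% of all genes rose and 31.7% fell. All 5 astrocyte markers (Gfap, Aqp4, Aldh1l1, Gja1 and Slc1a2) rose, with summed levels between 1251 and 1280 CPM in Vhl cells in AZD8330, against 718.2 to 761 CPM in Vhl cells in DMSO. In control cells that sum lay between 1614 and 1687 CPM in AZD8330, against 656.2 to 720.6 CPM in DMSO. Of the neuronal markers 5 of 6 were tested; 3 rose in Vhl cells and 5 in control cells. Their sum was 563.4 to 590.5 CPM in Vhl cells in AZD8330, against 360.2 to 370.2 CPM in Vhl cells in DMSO, and 376 to 388.4 CPM in control cells in AZD8330, against 165.5 to 173.7 CPM in control cells in DMSO. Summed pluripotency markers were 4.758 to 6.188 CPM in Vhl cells in AZD8330, against 15.81 to 19.98 CPM in Vhl cells in DMSO, and 5.881 to 7.306 CPM in control cells in AZD8330, against 19.17 to 23.74 CPM in control cells in DMSO. Most of that sum in DMSO was Esrrb, at 14.17 to 22.07 CPM. Of the 3 pluripotency markers tested, 1 rose and 2 fell in Vhl cells, and 1 rose and 1 fell in control cells. Nanog was higher in AZD8330 than in DMSO in both genotypes, at no more than 2.797 CPM. No microglial or endothelial marker reached the level filter. The part of these markers in the ribosomal protein result was not tested.

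**Figure D2:**
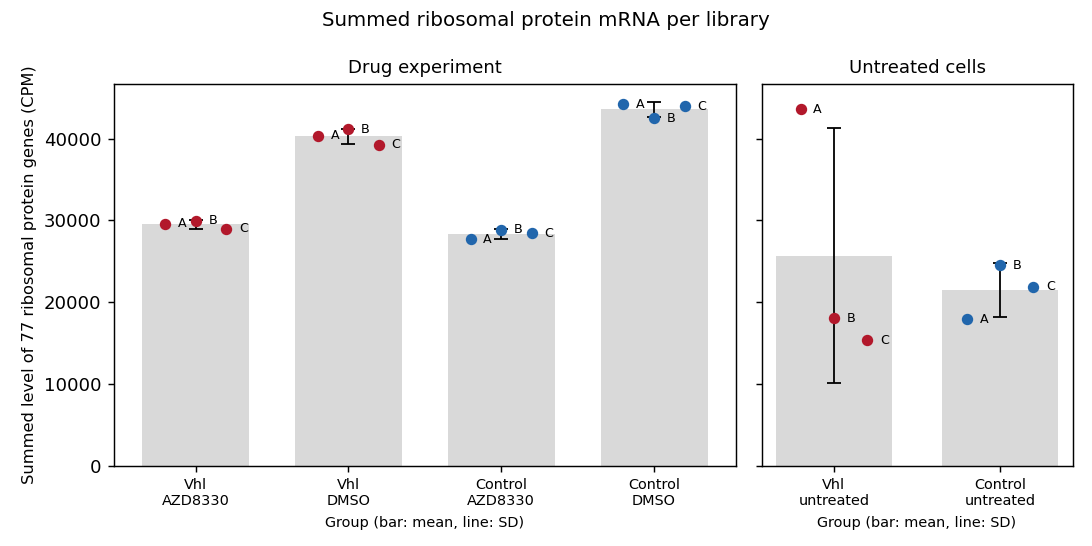
Summed CPM of the 77 ribosomal protein genes in each library (points, labelled A, B and C), with the group mean as a bar and the SD as a line; the drug experiment is on the left and untreated cells are on the right. AZD8330 libraries lie between 27710 and 29980 CPM in both genotypes and DMSO libraries between 39280 and 44230 CPM, while untreated Vhl library A, at 43620 CPM, is apart from the other untreated libraries.

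The drug effects of both genotypes, which share no library, were alike in direction, and 65 genes fell in both. As a description across genes, which are not independent replicates, the log2 changes had a Pearson r of 0.59 over the 77 genes and 0.72 over the 53 of at least 100 CPM. The direct test of the difference, Vhl effect minus control effect, called 24 genes as positive, meaning a smaller fall in Vhl cells, and 0 as negative. Over all genes tested 7.81% were called positive and 4.96% negative. The difference was positive in 71 of the 77 genes, with a median of 0.20, against 0.03 over all genes. The 24 comprised 11 small subunit and 13 large subunit genes, and 23 of them were among the 53 genes of at least 100 CPM, 43.4%, where 18.7% of all tested genes of that level were called positive. The P stalk gave no call by edgeR in this contrast. Over the 77 genes, 42 were positive and 1 was negative at an unadjusted p under 0.05, and DESeq2 called 21 positive and 0 negative after adjustment.

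Rpl13a had the smallest p for the difference, 0.28 on the log2 scale (SE 0.05, edgeR adjusted p = 0.00142). Its levels in Vhl cells were 1043, 1111 and 1055 CPM in AZD8330, against 1403, 1446 and 1448 CPM in DMSO. The Vhl drug libraries all lay above the control drug libraries given before, and the fall was 25.3% in Vhl cells, against 38.7% in control cells. Rps19 followed, at 0.27 (SE 0.05, edgeR adjusted p = 0.00221), with 524.7, 535.7 and 507.4 CPM in Vhl cells in AZD8330, against 742.6, 753.9 and 713.9 CPM in Vhl cells in DMSO. Its DMSO levels overlapped between the genotypes and its AZD8330 levels did not. The largest differences by size were not called: Rpl7 at 0.83, Rpl6 at 0.80 and Rps13 at 0.60 on the log2 scale, each from a row under 15 CPM. Rpsa had a difference of 0.07 (95% interval −0.02 to 0.16), and Rps6 one of 0.12 (95% interval 0.04 to 0.20, edgeR adjusted p = 0.0776).

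The count of 24 depended on single libraries. It was 12 without control AZD8330 A, 3 without control AZD8330 B, 14 without control DMSO A, 4 without Vhl AZD8330 A and 14 without Vhl DMSO C. Without control AZD8330 B or Vhl AZD8330 A, all genes moved as well. Their median went from 0.03 to −0.04 and −0.05, and positive calls became 37.3% and 34.5% of the calls over all genes. The median of the ribosomal protein genes was 0.12 and 0.10 in these 2 fits. The call of Rps19 was lost without control AZD8330 B and without Vhl AZD8330 A, whereas the call of Rpl13a remained when any 1 library was left out and was lost without all 4 A libraries. With libraries scaled by their total counts 9 genes were positive and 1 negative, and the share of positive calls among all genes was 44%, against 61.2% with the scaling used here. The gap between the median of the ribosomal protein genes and that of all genes stayed between 0.14 and 0.21 over all these alternatives. Where only the scaling changed, this gap was nearly fixed in advance, because a new scaling shifts all genes alike.

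**Figure D3:**
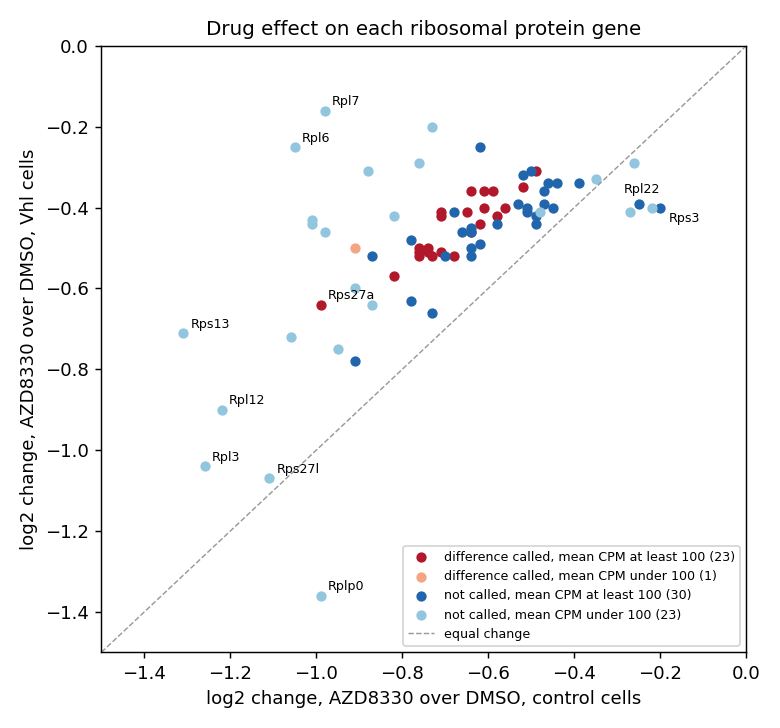
Each point is 1 of the 77 ribosomal protein genes, with the log2 change of AZD8330 over DMSO in control cells on the horizontal axis and in Vhl cells on the vertical axis; red and orange points passed the edgeR test of the difference. All points lie below 0 on both axes and 71 lie above the dashed line of equal change.

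In DMSO, the summed level of ribosomal protein mRNA was slightly lower in Vhl cells than in control cells with the scaling used here. Of the 77 genes 27 fell and 2 rose, where 18.5% of all genes fell and 13.8% rose. At a level of at least 100 CPM the share that fell was close to that of other genes, 43.4% of the ribosomal protein genes and 40.3% of all tested genes, and the share that rose was 3.77% and 19%. The median log2 change was −0.10, against −0.03 over all genes, with values between −0.49 and 0.29; at 100 CPM or more the medians were −0.10 and −0.08. The 27 comprised 11 small subunit and 16 large subunit genes, while the P stalk gave no call in either direction by edgeR. In 38 genes the Vhl libraries all lay below the control libraries and in 2 all above, against 25.3% and 19.5% of all genes. The summed level given before was 7.57% lower in Vhl cells in DMSO than in control cells in DMSO. As a share of all counts the groups overlapped, with 4.09%, 4.16% and 3.99% in Vhl cells, against 4.26%, 4.11% and 4.32% in control cells. The scaling factors were 1.014, 1.01 and 1.016 in Vhl cells, against 0.9637, 0.9665 and 0.9822 in control cells. Summed mitochondrially encoded mRNA also differed, at 31360 to 32550 CPM in Vhl cells in DMSO and 45930 to 54180 CPM in control cells in DMSO. Of the OPC markers 6 of 8 rose and 1 fell. The neuronal marker sum was 360.2 to 370.2 CPM in Vhl cells and 165.5 to 173.7 CPM in control cells, with 2 of 5 tested markers rising, and of the 5 astrocyte markers 1 rose and 2 fell. The part of these differences in the ribosomal protein result was not tested.

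Rps2, a small subunit protein at the mRNA entry site, had 1229, 1258 and 1176 CPM in Vhl cells in DMSO, against 1594, 1626 and 1598 CPM in control cells in DMSO. It was 24% lower without overlap (log2 change −0.40, SE 0.04, edgeR adjusted p = 7.3e-06). Rpsa fell by 0.27 (edgeR adjusted p = 2.51e-05), Rpl41 by 0.31 (edgeR adjusted p = 0.000126) and Rpl8 by 0.22 (edgeR adjusted p = 0.000161). Rpl22 went the other way, with 229.9, 235.1 and 226.5 CPM in Vhl cells, against 199.7, 207.2 and 199.5 CPM in control cells. All 3 Vhl libraries were higher (log2 change 0.19, SE 0.04, edgeR adjusted p = 0.00162). The other gene that rose, Rpl13a, changed by 0.12 (SE 0.03, edgeR adjusted p = 0.012). The calls of Rpl22, Rps2, Rpsa, Rpl41 and Rpl8 were kept under every alternative tried, and that of Rpl13a was lost without control DMSO B. The largest changes by size were Rps13 and Rpl10 at −0.49 and Rpl7 at −0.45, and of these Rps13 alone was called (edgeR adjusted p = 0.0307). That call was lost without control DMSO A or C, Vhl AZD8330 A, or Vhl DMSO B or C, each left out singly.

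The count of 27 genes was 15 without control AZD8330 B, 17 without Vhl AZD8330 A and 17 without Vhl DMSO C, and the count of genes that rose was 1 without control DMSO B. Without control AZD8330 B or Vhl AZD8330 A, both of them outside this contrast, the scaling and the spread were refitted, and the median of the ribosomal protein genes became −0.07 and that of all genes 0.01. Scaling by total counts gave 11 genes that fell and 3 that rose, with 56.6% of the calls over all genes positive, against 42.6% with the scaling used here. Rplp0 and Rps12 changed sign when near-identical rows were added, an alternative chosen after seeing the data. The own row of Rplp0 gave 0.23 (edgeR adjusted p = 0.461) and the sum −0.19 (edgeR adjusted p = 0.005). The own row of Rps12 gave 0.03 (edgeR adjusted p = 0.89) and the sum −0.11 (edgeR adjusted p = 0.0204).

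In AZD8330, 16 of the 77 genes rose in Vhl cells and 6 fell, or 20.8% and 7.79%, where 16% of all genes rose and 14% fell. The share that rose was near that of all genes, and the share that fell was under it. At a level of at least 100 CPM, 26.4% of the ribosomal protein genes rose, against 23.5% of all tested genes, and 7.55% fell, against 28.9%. The median log2 change was 0.09, against 0.01 over all genes, with values between −0.64 and 0.83. Those that rose were 8 small subunit and 8 large subunit genes, and 3 genes of each subunit fell. The Vhl libraries were all above the control libraries in 20 genes and all below in 7, against 22.2% and 20.7% of all genes. The summed levels were 1.04 times as high in Vhl cells as in control cells. In this contrast the summed mitochondrially encoded mRNA was 25420 to 27640 CPM in Vhl cells and 49310 to 52400 CPM in control cells. Of the OPC markers 6 of 8 rose and 1 fell, of 5 tested neuronal markers 3 rose and 1 fell, and of 5 astrocyte markers 1 rose and 3 fell, with the sums given before; their part was not tested.

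Rpl13a again led, with the AZD8330 levels given before (log2 change 0.40, SE 0.03, edgeR adjusted p = 8.8e-07), a level 32.3% higher in Vhl cells. Rps19 rose by 0.28 (SE 0.03, edgeR adjusted p = 2.13e-05). Rpsa and Rps2, lower in Vhl cells in DMSO, were lower in AZD8330 as well: Rpsa fell by 0.20 (edgeR adjusted p = 0.000259) and Rps2 by 0.21 (edgeR adjusted p = 0.00101), with 929.1, 880.3 and 853.4 CPM of Rps2 in Vhl cells, against 1030, 987.8 and 1071 CPM in control cells. Rpl29 fell by 0.21 (edgeR adjusted p = 0.0252) and Rps24 by 0.13 (edgeR adjusted p = 0.0392). The largest values by size were Rpl6 at 0.83, called at an edgeR adjusted p of 0.0145 with 3.914 to 9.172 CPM, Rps15 at 0.68, not called, and Rpl10 at −0.64, called at an edgeR adjusted p of 0.0432 in its own row. With near-identical rows added, Rpl10 stood at −0.00 (edgeR adjusted p = 0.988).

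Without Vhl AZD8330 B 10 genes rose and 2 fell, and 2 also fell without control AZD8330 C. Scaling by DESeq2 size factors gave 10 genes that rose and 9 that fell. The calls of Rpl13a and Rps19 were kept under every alternative tried. The call of Rpl6 was lost without control AZD8330 B or C or Vhl AZD8330 B or C, that of Rpl29 without control AZD8330 A or C or Vhl AZD8330 B, and that of Rps24 without control AZD8330 C, control DMSO B, Vhl AZD8330 B or C, or Vhl DMSO B, each library left out singly. The call of Rpl10 in its own row was lost without any 1 of 9 libraries and kept without control AZD8330 B, Vhl DMSO B or Vhl DMSO C.

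**Figure D4:**
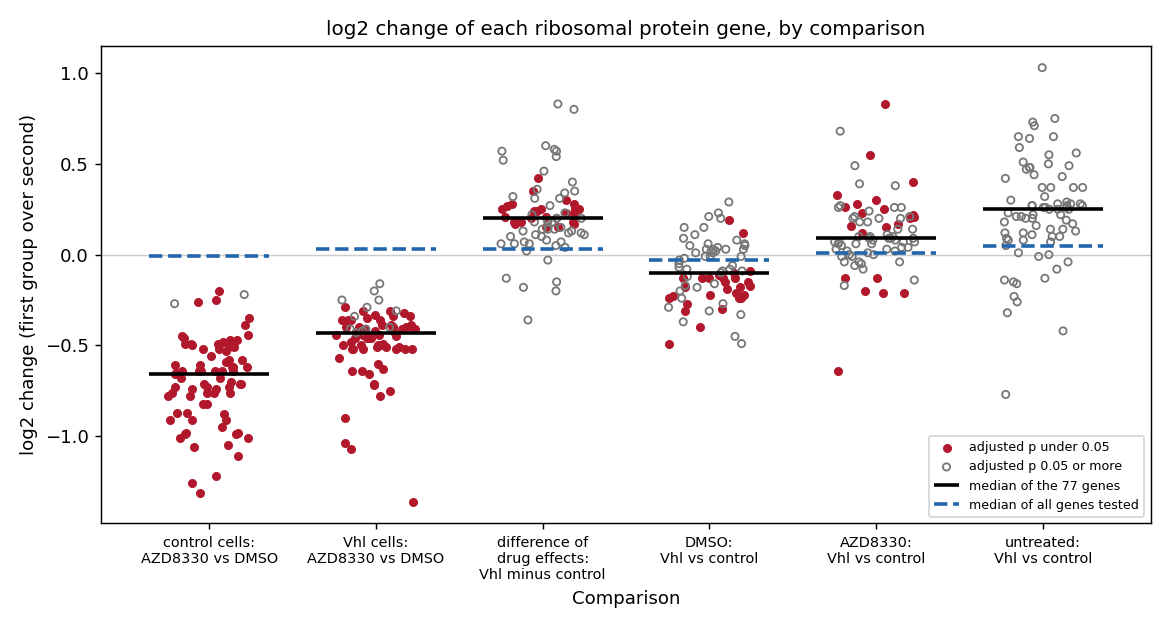
The log2 change of each of the 77 ribosomal protein genes (points, red where the edgeR adjusted p was under 0.05) in the 6 comparisons, with the median of the 77 as a black line and that of all genes tested as a blue dashed line. The medians of −0.66 and −0.43 for the drug stand well below those of all genes, −0.01 and 0.03, while the medians of Vhl over control are −0.10 in DMSO, 0.09 in AZD8330 and 0.25 in untreated cells.

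In untreated cells no ribosomal protein gene was called between Vhl and control. By edgeR 0 rose and 0 fell, where 0.0147% of all genes rose and 0% fell, and the counts were also 0 at an unadjusted p under 0.05 and with DESeq2. The median log2 change of 0.25, against 0.05 over all genes, rested on 1 library. The summed level in untreated Vhl cells was 43620 CPM in library A, 18050 in B and 15310 in C, against 17940 CPM in control library A, 24550 in B and 21880 in C. Vhl A was the highest of the 6, Vhl C the lowest, and the groups overlapped, with means of 25660 ± 15600 CPM and 21460 ± 3330 CPM (SD, n = 3 each). The ratio of the sums, 1.2, became 0.777 without Vhl A, and the median log2 change became −0.45, with 2 genes called as lower; in that fit 439 of all genes tested were called, 70.2% of them higher.

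The libraries differed across nearly the whole set. Vhl A held the highest value of 68 of the 77 genes, Vhl C the lowest of 46 and control A the lowest of 22. A typical gene was 2.9 times as high in Vhl A as in the mean of Vhl B and C, taking the median over genes. Rps6, for example, had 1190 CPM in Vhl A, 567.3 in Vhl B and 512.6 in Vhl C, against 399.6, 649.4 and 590.6 CPM in the controls in the same order of letters. Rpl41 had 1206, 384.7 and 282.3 CPM in Vhl cells, against 270.3, 464 and 377.2 CPM in control cells, with Vhl A alone above the controls. Rplp0 had the largest change, 1.03 (SE 0.67, edgeR adjusted p = 0.707), followed by Rpl7 at −0.77 and Rpl41 at 0.75, none of them called. Only Rpl10a had all 3 Vhl libraries above the controls, 202.6, 193.5 and 227.6 CPM, against 172.9, 153.2 and 157.4 CPM, where 7.92% of all genes had that arrangement; 0 had all 3 below, the case in 7.86% of all genes. The common dispersion was 0.144 in untreated cells and 0.0161 in the drug experiment. The astrocyte marker sum was 676.3 CPM in Vhl A and 1059 to 1746 CPM in the other 5 untreated libraries, and its part in the level of Vhl A was not tested.

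Genes that work beside these proteins but fall outside the name rule moved in a similar direction under the drug. Of 6 further ribosomal proteins or paralogs, among them Fau, Rack1 and Rpl22l1, 5 fell in Vhl cells with AZD8330, where 25.6% of all genes fell, and 6 in control cells, where 31.7% did. Fau, which encodes a small subunit protein fused to a ubiquitin-like protein, was the exception: it had 604.7, 574.4 and 575.4 CPM in Vhl cells in AZD8330, against 608, 619.8 and 589 CPM in Vhl cells in DMSO, with overlapping groups (log2 change −0.05, SE 0.03, edgeR adjusted p = 0.195). In control cells it had 322.1, 328.6 and 336.1 CPM in AZD8330, against 425, 426.7 and 421.3 CPM in DMSO, and fell by 0.37 (edgeR adjusted p = 3.22e-07). Fau was also higher in Vhl than in control cells by 0.83 in AZD8330 and by 0.51 in DMSO (edgeR adjusted p = 8.01e-10 and 8.81e-08), larger than the change of any ribosomal protein gene called as higher in DMSO.

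A list of 19 other translation genes, most of them also of the TOP class, had 12 falling in Vhl cells (median −0.38) and 14 in control cells (median −0.55) with AZD8330, and 0 rising in either, beside the same shares of all genes. Npm1, a nucleolar chaperone of ribosome assembly, fell by 0.85 in Vhl cells and by 1.26 in control cells, and Tpt1, a growth-related protein with a TOP mRNA, fell by only 0.12 in Vhl cells and 0.21 in control cells. The elongation factors Eef1a1 and Eef2 gave no call by edgeR in either genotype, with standard errors between 0.23 and 0.47, and Pabpc1 was called in control cells alone (log2 change −1.83, SE 0.50, edgeR adjusted p = 0.0067). Among 12 regulators of ribosomal protein mRNAs, 9 fell in Vhl cells, with 25.6% of all genes, and 8 in control cells, with 31.7%. Myc, a transcriptional activator of ribosomal protein genes, had 156.9, 156.5 and 159.6 CPM in Vhl cells in AZD8330, against 260.5, 254.8 and 244.4 CPM in Vhl cells in DMSO. In control cells it had 86.94, 86.75 and 81.19 CPM in AZD8330, against 238.1, 240.3 and 239.8 CPM in DMSO. It was lower in each drug library, by 0.68 on the log2 scale in Vhl cells and by 1.49 in control cells, a difference of 0.81 (SE 0.05, edgeR adjusted p = 1.47e-06).

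Mitochondrial ribosomal proteins, which are encoded in the nucleus and serve the separate ribosome of mitochondria, gave the nearest comparison. Of 80 tested, 46 fell and 2 rose in Vhl cells with AZD8330 (median −0.27), and 60 fell and 3 rose in control cells (median −0.47). All genes fell in 25.6% and 31.7% of cases in these comparisons. The difference of drug effects was called positive in 14 and negative in 0, where 7.81% of all genes were positive, with a median of 0.19, close to that of the cytosolic set. Between genotypes in DMSO, 43 of the 80 fell and 1 rose (median −0.26), where 18.5% of all genes fell, and in AZD8330 9 fell and 4 rose (median −0.07), where 14% fell. No test set one family against the other.

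Genes with and without a C and pyrimidine run at the exact annotated first base had similar median drug effects. The 13 genes with such a start had a median log2 change of −0.44 in Vhl cells, against −0.42 for the 44 genes with a promoter and no such start, and −0.68 in control cells, against −0.65. In the wider window around the start given before, a C with a pyrimidine run was found in 32 of the 57 genes with a promoter. The split at the exact base therefore depends on the annotation. It cannot decide whether the TOP motif matters to the drug effect. Among the 6 genes printed with a pyrimidine run in capitals, changes in control cells lay between −0.78 for Rps18 and −0.39 for Rpl38. Rpl35, with the longest run of these 6 at 11 bases, had −0.62. Rps3 and Rpl27a, without a C start, were chosen for their changes of −0.20 and −0.91. Their values therefore do not compare kinds of start.

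Most ribosomal protein genes varied little within a group, but a small set varied together. Over the 53 genes of at least 100 CPM in the drug experiment, the pooled within-group SD of log2(CPM + 1) ran from 0.03 to 0.26, with a median of 0.05. The 10 largest were those of Rps29, Rpl10a, Rps7, Rps28, Rpl31, Rplp2, Rpl28, Rpl38, Rpl39 and Rps21, a set chosen for its spread. In control cells in AZD8330, Rps29, a zinc-binding protein of the small subunit head, had 351.3, 454.6 and 303 CPM in libraries A, B and C, and Rps28, a small protein near the mRNA exit, had 264.9, 319.3 and 231.1 CPM. B was the highest and C the lowest for both. Rps7 ran the opposite way, with 253, 218.2 and 308 CPM, and its own row held 45.5% of its summed level. As a description over the 12 libraries, which share their totals, the deviations from the group mean of 7 of the other 9 genes had a Pearson r with those of Rps29 between 0.75 and 0.98, Rps21 had 0.39 and Rps7 −0.87. The libraries that stood out in these genes included control AZD8330 B and C, Vhl AZD8330 A and B, and control DMSO B. For Rps29, control DMSO B deviated by −0.23 and Vhl AZD8330 B by 0.27. Among single libraries, removing control AZD8330 B or Vhl AZD8330 A lowered the count of genes with a different drug effect most. In those fits the median difference over all genes moved too, to −0.04 and −0.05. Control AZD8330 C, control DMSO B and Vhl AZD8330 B were not among the libraries named before for that count. The part of this variation in that count was not tested.

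**Figure D5:**
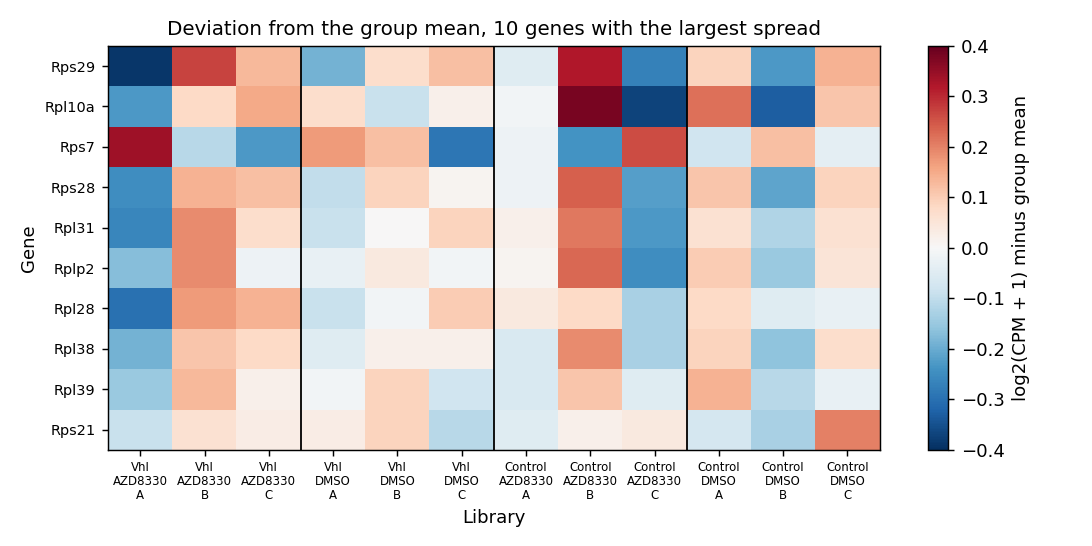
Deviation of log2(CPM + 1) from the group mean (colour, red above and blue below) for the 10 ribosomal protein genes with the largest within-group SD, in the 12 libraries of the drug experiment. Control AZD8330 B and Vhl AZD8330 B are red in most rows. Control AZD8330 C, control DMSO B and Vhl AZD8330 A are blue in most rows, and Rps7 shows the opposite colours.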

How the data were processed

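Estimated counts per gene were deposited by the authors for 6 untreated and 12 drug-experiment libraries; Salmon 0.14.1 and the build mm10 are named per the submitters' processing notes, and the annotation used for counting is not stated there. The tables are called TPM, but their columns sum to different totals of estimated counts, so count models were used. Counts were rounded to whole numbers. Each table was fitted separately with edgeR 4.0.16 (quasi-likelihood, TMM scaling, R 4.3.3) on genes averaging 1 CPM or more over its libraries, and p-values were adjusted by Benjamini-Hochberg over all genes tested, with a threshold of 0.05. "Rose" and "fell" mean past that threshold; CPM values are scaled by TMM. DESeq2 1.42.0 and limma 3.58.1 (on log2(CPM + 1) and log2(CPM + 0.1)) were alternatives. The fits were tested on simulated data. The replicate letters did not pair the libraries: same-letter deviations had correlations between −0.08 and 0.05 over 21 pairs.

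Near-identical rows were found from shared 31-base words in GENCODE M21 transcripts. The members, gene lists and tests were chosen with earlier results of these data known. Genes were named by rule: in each comparison up to 4 called members with the smallest p in each direction and the 3 largest changes, plus members and related genes of known role; those named after their values were seen are marked, and some genes that the rule names are not reported here. Printed promoters are from RefSeq (GRCm38.p6). The depth of a library limits low rows most, and the counts alone do not resolve reads shared with pseudogenes.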

Additional observations from a re-analysis of the deposited data

Results flagged for a closer look

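The drug effect differed between Vhl and control cells, by the edgeR test of the difference itself, in 24 ribosomal protein genes, all with a smaller fall in Vhl cells, where 7.81% of all genes tested were called positive and 4.96% negative. The count was 3 without control AZD8330 B, 4 without Vhl AZD8330 A and 0 without the 4 A libraries, and in each of these the call of Rps19 was lost. Without control AZD8330 B or Vhl AZD8330 A, the median difference over all genes also moved, from 0.03 to −0.04 and −0.05. The genes named here for that contrast were Rpl13a (difference 0.28 on the log2 scale) and Rps19 (0.27). Their levels and adjusted p-values are given in the report, and both had positive differences, with lower 95% bounds of 0.20 for Rpl13a and 0.18 for Rps19. No cause of the difference was tested.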

How the results depend on the processing

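The counts of genes that fell with the drug stayed within 1.5 times in both genotypes under every alternative tried: leaving out 1 library gave 62 to 67 genes that fell in Vhl cells and 70 to 75 in control cells. The smaller contrasts moved. Genes with a positive difference of drug effects (24) numbered 9 (1 negative) with total-count scaling, 12 with DESeq2 size factors, 7 (1 negative) at a minimum of 5 CPM, 0 without the A libraries, 9 without the B and 12 without the C libraries; leaving out 1 library gave 3 to 23 positive and 0 to 1 negative. Genes that fell in Vhl cells in DMSO (27) numbered 11 with total-count scaling, 16 at 5 CPM, 9, 16 and 16 without the A, B and C libraries, and 16 with only the 2 groups compared; leaving out 1 library gave 15 to 28, and 1 to 3 that rose (1 without the B libraries). In AZD8330 (16 rose, 6 fell), 10 rose with DESeq2 size factors and 6 without the A libraries, and 11 fell with DESeq2 and 3 without the B or the C libraries; leaving out 1 library gave 10 to 18 that rose and 2 to 8 that fell. In untreated cells 2 fell without both A libraries, and 0 to 2 when 1 library was left out. The summed ratio by share of all counts was 0.675 for AZD8330 over DMSO in control cells (0.65 with TMM) and 0.965 for Vhl over control in DMSO (0.924 with TMM). Leaving out 1 library gave ratios of 0.724 to 0.741 and 0.642 to 0.657 for the drug in Vhl and control cells, 0.913 to 0.936 and 1.03 to 1.05 for Vhl over control in DMSO and AZD8330, and 0.777 to 1.44 untreated. The letters were also used as a replicate block, a pairing that the labels do not state. With that block 26 genes fell in DMSO, and 17 rose and 5 fell in AZD8330. With it 65 and 74 fell with the drug in Vhl and control cells, 20 differed in drug effect and 0 were called untreated. Summing near-identical rows changed the sign of Rplp0 (−0.19) and Rps12 (−0.11) in DMSO, left Rpl10 in AZD8330 at −0.00, and gave 70 and 77 genes that fell with the drug in Vhl and control cells, 27 with a positive difference, 2 that rose and 31 that fell in DMSO, and 13 and 5 in AZD8330. Among single named genes, 96 values lost and 30 gained a call over all alternatives. The causes were not tested.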

Other observations

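The untreated table also holds 2 columns of the authors' means, which entered no comparison. The column for controls equals the mean of the 3 untreated control libraries, with a largest difference of 3.33e-05 over all rows. The column for Vhl equals the mean of control B, control C and Vhl A, within the same difference, and not the mean of the 3 untreated Vhl libraries.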
